A study of Mus musculus with 8 samples.

Results

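Fat cells leave a distinct set of transcripts in any tissue that carries some fat. In RNA from mouse hearts, 8 such genes of white and brown adipocytes were followed: *Adipoq*, *Cfd*, *Plin1*, *Lep*, *Retn*, *Car3*, *Ucp1*, and *Cidec*. They were chosen by symbol, as genes that can show attached fat in a sample, and with earlier results of these data known. All 8 have a row among the 16994 genes of the count table. Male wild-type (WT) mice and mice with whole-body knockout of TIGAR (TKO), a phosphatase that acts on a regulator of glycolysis, had myocardial infarction induced at an age of 16 weeks by tying off the left anterior descending artery for good. Their heart function was last measured 4 weeks after it, and the authors' methods name no separate time for taking the tissue. The data hold 8 libraries, 1 for each genotype and region: WT left ventricle (LV), TKO LV, and the infarct, border, and remote zones of the left ventricle of each genotype. RNA of 3 mice was pooled for each infarct zone library, the number of mice behind the other libraries is not given in the sources used here, and neither is whether the hearts of the LV libraries had been operated on. Since each group is 1 library, the spread between mice cannot be measured.

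White adipocytes store triglyceride in a single large lipid droplet and secrete hormones and complement factors. Brown adipocytes burn lipid for heat through an uncoupling protein in their mitochondria. The mouse heart carries both kinds of fat nearby, as deposits on its outer surface, in the pericardium and around the great vessels, and cardiomyocytes themselves use many of the enzymes of lipid uptake and storage. The genes followed here are known mainly from fat cells. In bulk RNA, a larger number of cells of a type and more RNA per cell cannot be told apart.

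The genes lie on 6 chromosomes of the GRCm38 build. By the GENCODE M21 annotation, *Adipoq* lies at chr16:23146536-23158028, *Cfd* at chr10:79890853-79892655, *Lep* at chr6:29060220-29073877, *Retn* at chr8:3655770-3660110, *Car3* at chr3:14863512-14872523, and *Ucp1* at chr8:83290352-83298452, all on the plus strand. *Plin1* lies at chr7:79720218-79732903 and *Cidec* at chr6:113424634-113435760, both on the minus strand. Their longest annotated transcripts run from 922 bases for *Cfd* to 3259 bases for *Lep*, and no other annotated gene overlaps any of the 8.

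Because several of these genes moved together across libraries, the sequences just upstream of their starts were read. RefSeq promoter windows on GRCm38.p6 were found for 7 of the 8 genes, with 2 starts for *Cidec*, and *Car3* had no entry. The 250 bases before each start were searched on both strands for the C/EBP motif TTNNGCAA, for the CCAAT box (the letters CCAAT), for a TATA box written TATAAA, and for the hexamer AGGTCA bound by nuclear receptors. The motifs do not overlap each other in these windows. The 120 bases before the start are shown for *Adipoq* (chr16:23146416-23146535, plus strand), *Lep* (chr6:29060101-29060220, plus strand), and *Ucp1* (chr8:83290228-83290347, plus strand), since each held a different motif, with the matched letters in capitals.
Adipoq: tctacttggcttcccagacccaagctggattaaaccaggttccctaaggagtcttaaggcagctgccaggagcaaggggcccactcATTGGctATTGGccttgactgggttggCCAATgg
Lep: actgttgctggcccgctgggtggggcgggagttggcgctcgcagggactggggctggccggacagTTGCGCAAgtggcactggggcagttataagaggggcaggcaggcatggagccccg
Ucp1: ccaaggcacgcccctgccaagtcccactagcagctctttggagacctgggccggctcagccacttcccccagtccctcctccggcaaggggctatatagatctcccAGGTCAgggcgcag
The *Adipoq* window held the CCAAT letters at 3 places, the *Lep* window the C/EBP letters once, and the *Ucp1* window the hexamer once. The C/EBP letters also stood 2 times before *Plin1* and once before the second start of *Cidec*, so 3 of 8 starts held them, against 9.56% of the 32851 windows of this length. The CCAAT letters were in 1 of 8 starts against 33.8% of windows, the hexamer in 1 of 8 against 14.0%, and the TATA letters in 0 of 8 against 12.4%. No motif was common to the genes, and a match of letters describes the sequence only.

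Total estimated counts lay between 27429240 and 33799249 per library, so 3 counts, taken here as the floor of a library, correspond to 0.0708 to 0.116 counts per 1000000 (CPM) after scaling by the trimmed mean of M-values (TMM). *Tigar*, the targeted gene, had 51 to 87 counts in the 4 TKO libraries and 1066 to 2215 in the 4 WT libraries, as the labels require. The 7 cardiomyocyte genes examined (*Myh6*, *Myl2*, *Tnni3*, *Tnnt2*, *Ttn*, *Ryr2*, *Actn2*) summed to 6434 CPM in WT infarct and to 29993 CPM in WT LV, with the other 6 libraries between them, so the heart label held in each and the WT infarct library had the least of these transcripts.

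The secreted products of fat cells were highest in the WT LV library and lowest in the TKO LV library. *Adipoq*, which encodes the hormone adiponectin, had 370 counts in WT LV and 6 in TKO LV. In the infarct zone it had 109 counts in WT and 56 in TKO, in the border zone 79 and 36, and in the remote zone 28 and 17. On the TMM scale these were 13.5 CPM in WT LV, 0.232 CPM in TKO LV, and 0.565 to 2.57 CPM in the 6 zone libraries. *Adipoq* was thus 58.3-fold lower in TKO LV than in WT LV, with a ratio of 0.0172 and an exact 95% interval of 0.0063 to 0.0377, which covers counting error only, as do all intervals on ratios below.

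*Cfd*, which encodes complement factor D (adipsin), had 1144 counts in WT LV and 17 in TKO LV, then 398 and 170 in the WT and TKO infarct zones, 337 and 114 in the border zones, and, in the remote zones, 61 in WT and 89 in TKO. Its TKO over WT ratio was 0.0157 in the LV (0.0091 to 0.0253). The WT library was the higher in 3 regions, and in the remote zone the TKO library was, with a ratio of 1.47 (1.05 to 2.08).

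*Lep*, the satiety hormone leptin made by white fat, had 45 counts in WT LV, 24 in WT infarct, and 8 in WT border, and every other library had 0 to 2 counts. It was at least 14.2-fold lower in TKO LV, where it had 0 counts, taking 3 counts as the floor. In the infarct zone 2 counts in TKO against 24 in WT gave a ratio of 0.0987 (0.0113 to 0.398). Counts of *Lep* over the floor thus lay in 3 WT libraries and in no TKO library.

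*Retn*, which encodes resistin, had 50 counts in WT LV, 2 in TKO LV, 44 and 21 in the WT and TKO infarct zones, 22 and 15 in the border zones, and 11 and 8 in the remote zones. WT LV was again the highest and TKO LV the lowest, but the step from WT LV down to WT infarct was small, with a ratio of 0.569 (0.371 to 0.871). With libraries scaled by their total counts that ratio became 1.01, so the order of these neighbours depended on the scaling.

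The genes of the lipid droplet differed from each other. *Plin1* encodes perilipin 1, which coats the droplets of fat cells and gates lipolysis. It had 34 counts in WT LV and 0 counts in each of the other 7 libraries, which at a floor of 3 counts is at least 10.7-fold lower in TKO LV and at least 17.5-fold lower in WT infarct. *Cidec*, which promotes droplet fusion in white fat, was present everywhere: it had 388 counts in WT LV, 6 in TKO LV, 132 and 81 in the WT and TKO infarct zones, 67 and 48 in the border zones, and 36 and 49 in the remote zones. Its TKO over WT ratio in the LV was 0.0164 (0.0060 to 0.0359), and in the remote zone it was 1.38 (0.876 to 2.18), which includes 1.

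*Car3*, the cytosolic carbonic anhydrase of fat cells that slow skeletal muscle also makes, had the most counts of the 8 genes in every library. It had 1702 counts in WT LV, 31 in TKO LV, 828 and 347 in the WT and TKO infarct zones, 441 and 177 in the border zones, and 142 and 189 in the remote zones. The TKO over WT ratio was 0.0193 (0.0131 to 0.0275) in the LV and 1.35 (1.08 to 1.68) in the remote zone. Per kilobase of the longest transcript, *Cfd* stood above *Car3* in WT LV, at 45.3 against 37.0 CPM per kilobase, and *Adipoq* (10.5) and *Cidec* (8.23) followed. *Ucp1* reached 2.50 CPM per kilobase there, *Retn* 1.60, *Lep* 0.504, and *Plin1* 0.441.

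*Ucp1*, the uncoupling protein that defines brown fat, had 112 counts in WT LV. In the other 7 libraries it had 0 to 3 counts: 3 in WT infarct, 2 in WT border, 3 in WT remote, 1 in TKO infarct, 1 in TKO border, and 0 in TKO LV and TKO remote. It was at least 35.3-fold lower in TKO LV than in WT LV. Of all counts of *Ucp1* in the series, 91.8% lay in the WT LV library, against 52.8% for *Adipoq*, 49.1% for *Cfd*, 44.1% for *Car3*, and 28.9% for *Retn*.

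**Figure D1:**
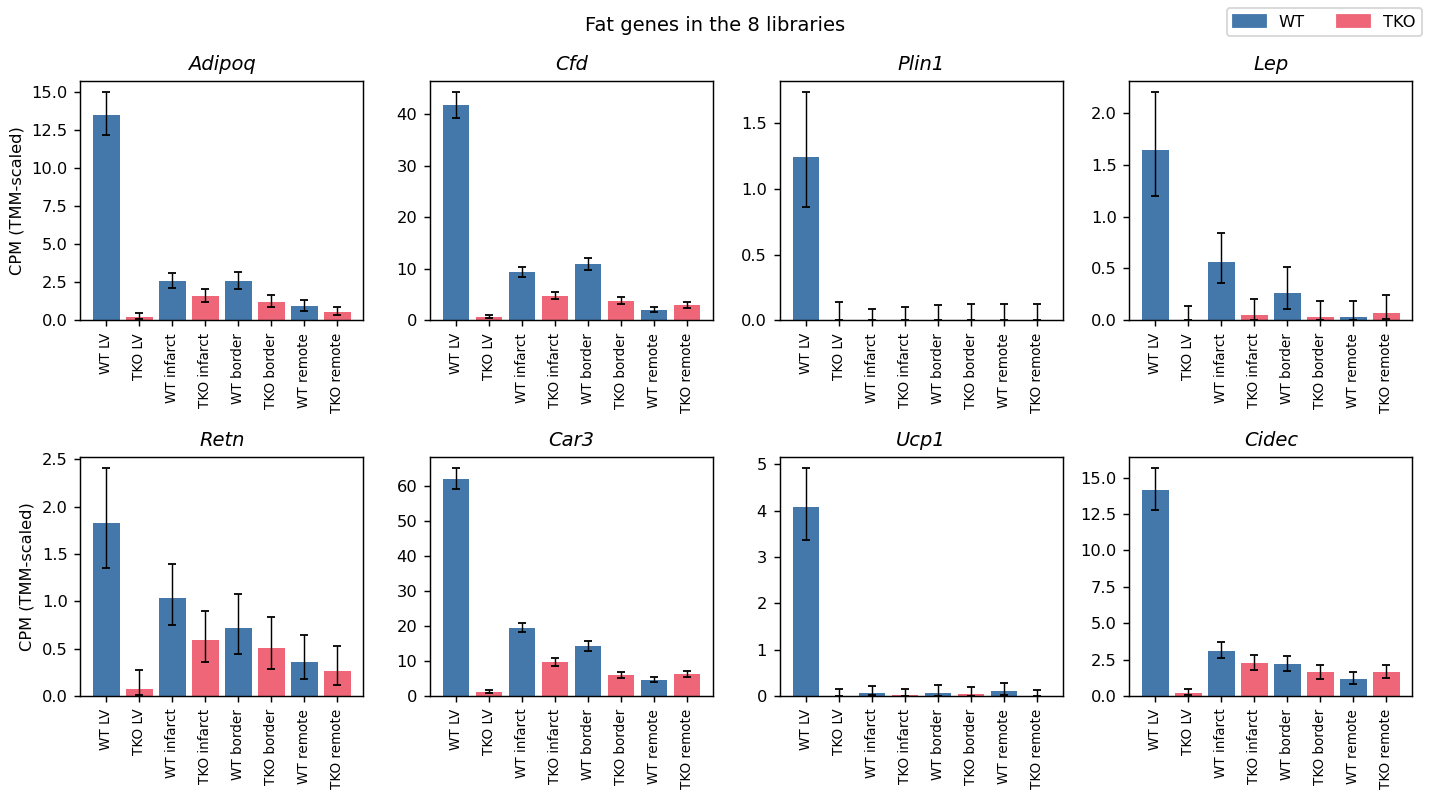
TMM-scaled CPM (vertical axes, each starting at 0) of the 8 fat genes in the 8 libraries, with WT in blue and TKO in red; bars are single libraries and error bars are exact 95% Poisson intervals of the count. WT LV is the highest bar for every gene, and *Plin1* has a bar in that library only.

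Summed over the 8 genes, the level was 140 CPM in WT LV, 36.3 in WT infarct, 31.0 in WT border, 19.0 in TKO infarct, 13.2 in TKO border, 11.8 in TKO remote, 9.27 in WT remote, and 2.40 in TKO LV. The top and bottom of this order were thus the LV libraries of the 2 genotypes, and the zones lay between them. Without *Car3* the order was the same at both ends, with 78.2 CPM in WT LV and 1.20 CPM in TKO LV. The sum was 58.6-fold lower in TKO LV than in WT LV, with a ratio of 0.0171 (0.0131 to 0.0219). The infarct zone gave 0.522 (0.476 to 0.572) and the border zone 0.426 (0.378 to 0.480). The remote zone turned to 1.27 (1.08 to 1.49). The neighbours TKO border, TKO remote, and WT remote differed in the sum by no more than 1.5-fold, and without replicate libraries their order cannot be set against the spread between mice.

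Whether TKO hearts had less of these transcripts than WT hearts was first read region by region. Of the 12999 genes whose mean CPM reached 1, those at least 2-fold lower in TKO were counted, with 2 counts added to each library as a prior. All 4 members that passed this filter (*Adipoq*, *Cfd*, *Car3*, *Cidec*) were lower in the LV, where 3.62% of all genes were. The same count was 1 of 4 in the infarct zone (*Car3*; 1.43% of all genes), 3 of 4 in the border zone (*Adipoq*, *Cfd*, and *Car3*; 3.26%), and 0 of 4 in the remote zone (2.39%). These 4 genes also had a mean CPM above 1 with WT LV left out, between 1.57 for *Adipoq* and 10.3 for *Car3*, so they did not pass through that library alone. *Plin1*, *Lep*, *Retn*, and *Ucp1* did not pass. The median log2 ratio of the 4 genes was -5.61 for the LV, -0.83 for the infarct, -1.15 for the border, and 0.43 for the remote zone, while the median over all genes lay between -0.01 and 0.01.

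**Figure D2:**
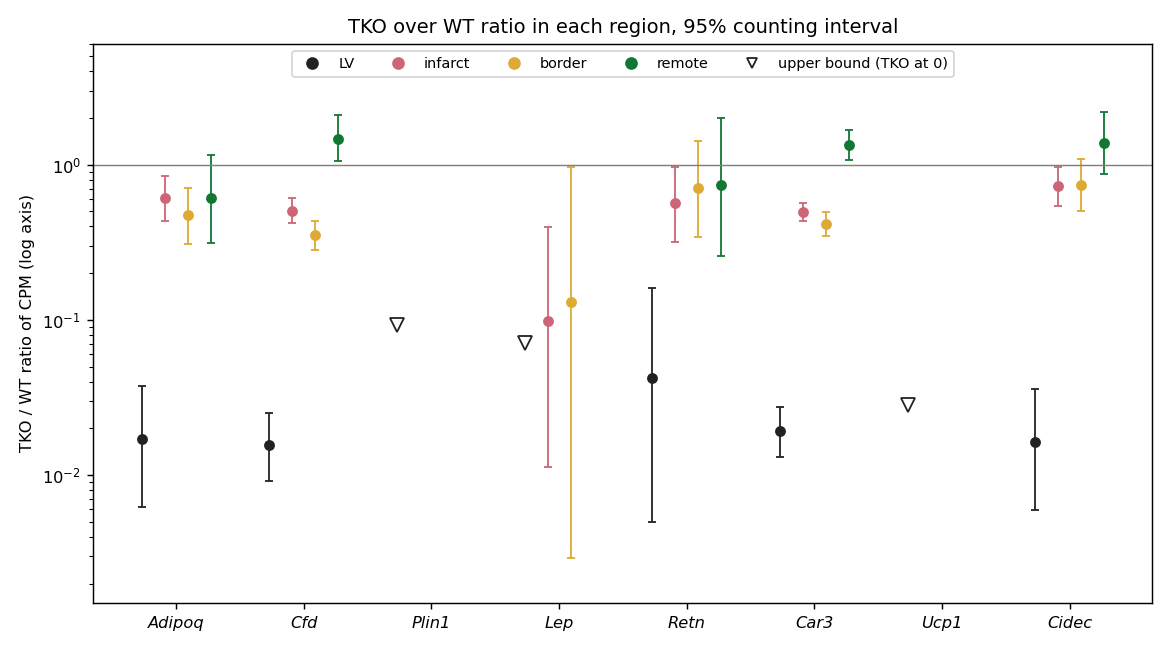
TKO over WT ratio of TMM-scaled CPM (log axis) for each gene, coloured by region; points are ratios of 2 libraries, bars are exact 95% counting intervals, triangles are upper bounds where TKO had 0 counts, and pairs with both libraries at 3 counts or fewer are left out. The LV points of *Adipoq*, *Cfd*, *Car3*, and *Cidec* lie near 0.02, well apart from those of the 3 zones.

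The LV pair held other large differences as well. Ranked from the lowest TKO over WT ratio in the LV among 12999 genes, *Cfd* was number 7, *Car3* 9, *Cidec* 10, and *Adipoq* 12, and *Tigar* itself was number 15. *Pck1*, the glyceroneogenic enzyme phosphoenolpyruvate carboxykinase that fat cells share with liver and kidney, was number 2. Others among the 15 were immunoglobulin segments such as *Igkv1-117*, *Itpr1*, a calcium channel of the endoplasmic reticulum, and *Sap130*, a subunit of a histone deacetylase complex, each at 0 to 3 counts in TKO LV. Across all 8 libraries the SD of log2(CPM + 0.5) was 1.30 for *Adipoq*, 1.58 for *Cfd*, 1.53 for *Car3*, and 1.22 for *Cidec*, which placed them at ranks 231, 120, 133, and 284, and the median over all genes was 0.30.

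**Figure D3:**
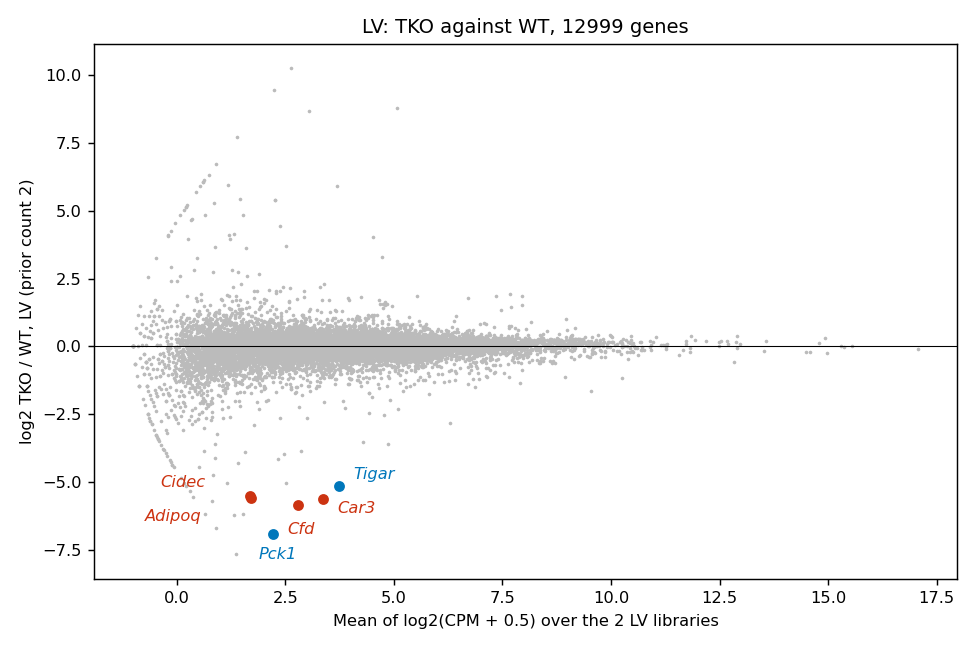
log2 TKO over WT ratio in the LV (vertical axis, prior count of 2) against the mean log2(CPM + 0.5) of both LV libraries (horizontal axis), 1 grey point for each of 12999 genes. *Adipoq*, *Cfd*, *Car3*, and *Cidec* (red) lie between -5.52 and -5.86, beside *Tigar* and *Pck1* (blue).

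Across regions, genotype was tested in 1 model with the 4 regions as blocks, which uses regions in place of replicate mice and bears on regions only. By the quasi-likelihood test of edgeR, adjusted by Benjamini-Hochberg, 0 of the 4 members tested passed an adjusted p of 0.05, where 0.138% of all genes did. A genotype difference that varies between regions counts as error in this additive fit, so the lack of calls does not show equal levels. The log2 fold change of TKO over WT was -1.79 ± 0.84 (SE) for *Adipoq* (adjusted p = 0.344), -1.70 ± 0.91 for *Cfd* (0.387), -1.59 ± 0.86 for *Car3* (0.392), and -1.15 ± 0.95 for *Cidec* (0.561), and none of the 4 had an unadjusted p under 0.05. With both LV libraries left out, the value for *Adipoq* was -0.84 with an adjusted p of 0.129, and for *Cfd*, *Car3*, and *Cidec* no call was gained. DESeq2's Wald test also called 0 of the 4.

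The genotype difference of the LV was then set against that of the 3 zones in a test added after the values had been seen. It was prompted by the LV values themselves, so its p-values describe these libraries and are no independent evidence. By edgeR's test it was lower in the LV by a log2 value of -5.00 ± 0.48 for *Adipoq* (adjusted p = 0.0359) and of -5.74 ± 0.60 for *Cidec* (adjusted p = 0.0401), while *Cfd* (-5.21 ± 0.85, adjusted p = 0.0766) and *Car3* (-5.00 ± 0.73, adjusted p = 0.0618) missed the threshold. Thus 2 of 4 members passed, where 0.646% of all genes did. The call rests on 1 WT and 1 TKO library of the LV, and its error comes from the other 6. Without WT border no member passed (*Adipoq*, adjusted p = 0.0707), where 0.0997% of all genes did. Without TKO border no member passed (*Adipoq*, adjusted p = 0.156), where 0% of all genes did. Without WT infarct, TKO infarct, or WT remote all 4 members passed, where 11.5%, 10.7%, and 0.391% of all genes did. Without TKO remote 3 members passed, where 0.306% of all genes did, and *Adipoq* was not among them (adjusted p = 0.0546). The value for *Adipoq* stayed between -5.14 and -4.92.

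The zones were next compared with the LV within each genotype, and the 2 genotypes went in opposite directions. In WT, all 4 tested members were at least 2-fold lower than in the LV in each zone, where 14.9% of all genes were in the infarct, 1.84% in the border, and 2.09% in the remote zone. In TKO, all 4 were at least 2-fold higher than in the LV in each zone, against 16.2%, 4.42%, and 3.11% of all genes. Summed over the 8 genes, the infarct over LV ratio was 0.259 (0.244 to 0.274) in WT and 7.91 (6.09 to 10.4) in TKO, the border over LV ratio 0.221 (0.206 to 0.237) and 5.52 (4.21 to 7.34), and the remote over LV ratio 0.0661 (0.0583 to 0.0746) and 4.91 (3.74 to 6.54). For *Adipoq* in the remote zone of TKO, 17 against 6 counts gave 2.44 (0.917 to 7.55), which includes 1. All 3 comparisons in a genotype share its LV library.

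With genotypes as blocks, edgeR called 0 of 4 members between the infarct zone and the LV, where it called 56.9% of all genes. It called 0 of 4 between the border zone and the LV, where it called 0.715%, and 0 of 4 between the remote zone and the LV, where it called 0% of all genes (1375 genes had an unadjusted p under 0.05, and DESeq2 called 162). A zone difference that varies between genotypes counts as error in this additive fit, so the lack of calls does not show equal levels. The infarct over LV log2 fold changes were -0.98 ± 1.11 (SE) for *Adipoq*, -0.94 ± 1.18 for *Cfd*, -0.53 ± 1.12 for *Car3*, and -0.92 ± 1.25 for *Cidec*. The LV libraries decided their sign: without WT LV the 4 values lay between 2.67 and 3.42, and without TKO LV they lay between -2.34 and -1.81. Each of these fits has 1 LV library left, so only the values are given.

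The make-up of the fat gene counts kept the same 4 genes in front in each library, and it differed most for the rare ones. *Car3* made up 44.3% to 53.8% of the summed counts of the 8 genes in every library, *Cfd* 21.6% to 35.3%, *Cidec* 7.01% to 13.8%, and *Adipoq* 4.80% to 9.93%. The sum held 3845 counts in WT LV and 62 in TKO LV. Relative to *Adipoq* in the same library, *Car3* had 4.60 counts per count in WT LV (4.11 to 5.16), 7.60 in WT infarct (6.21 to 9.36), and 11.1 in TKO remote (6.76 to 19.5), and *Cidec* had 1.05 in WT LV (0.907 to 1.21) and 2.88 in TKO remote (1.63 to 5.34), so the proportions of the abundant genes differed too. *Ucp1* was 2.91% of the sum in WT LV and 0.195% in WT infarct. *Ucp1* had 0.303 counts per *Adipoq* count in WT LV (0.243 to 0.375), 0.0275 in WT infarct (0.0056 to 0.0826), and 0.0253 in WT border (0.0030 to 0.0945). In WT remote, with 3 *Ucp1* counts, it was 0.107 (0.0208 to 0.347), so the interval of WT LV lay apart from those of the infarct and border zones and overlapped that of the remote zone. *Plin1* had 0.0919 counts per *Adipoq* count in WT LV (0.0627 to 0.131) and none beside the 109 *Adipoq* counts of WT infarct. *Retn* went the other way, with 0.135 counts per *Adipoq* count in WT LV (0.0985 to 0.182) and 0.404 in WT infarct (0.278 to 0.578). *Pck1* had 2.29 counts per *Adipoq* count in WT LV (2.02 to 2.59) and 0.844 in WT infarct (0.632 to 1.12).

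**Figure D4:**
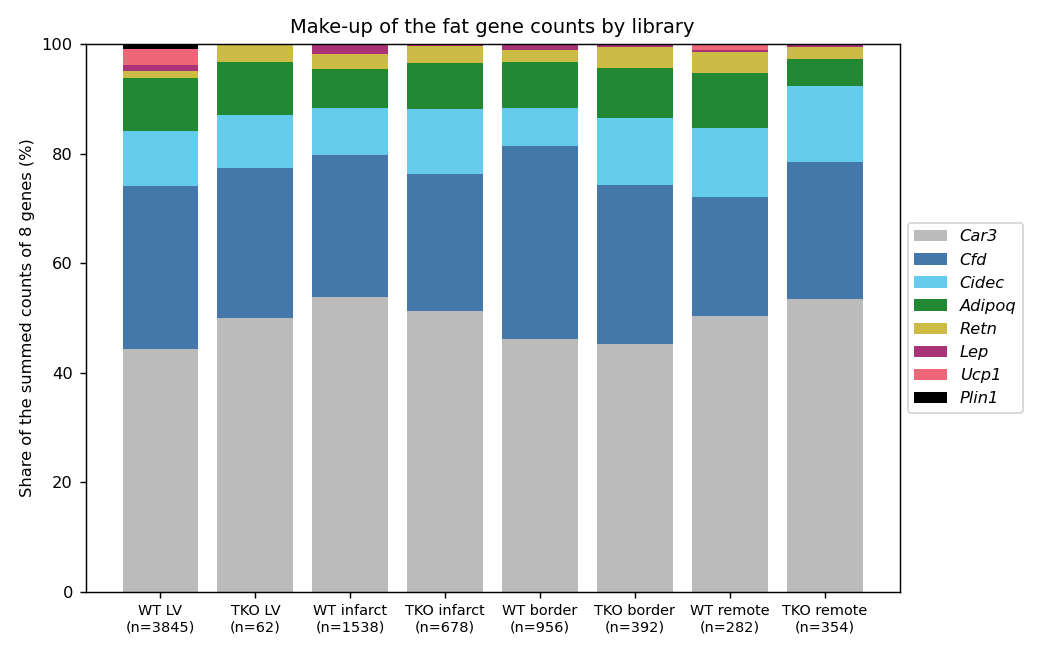
Share (%) of each gene in the summed counts of the 8 genes, 1 stacked bar for each library with its summed count below it. *Car3* and *Cfd* fill most of every bar, and the *Ucp1* and *Plin1* segments are widest in WT LV, at 2.91% and 0.884%.

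A wider list of 38 adipocyte genes was examined next, some of which heart muscle also makes. In the LV, 24 of the 30 that passed the filter were lower in TKO and 6 higher, with a median log2 ratio of -0.42 against 0.01 over all genes, and 8 of 30 were at least 2-fold lower, as were 3.62% of all genes. *Pck1* was the most extreme, with 847 counts in WT LV, 5 in TKO LV, and 18 to 92 in the zones, a TKO over WT ratio of 0.0062 (0.0020 to 0.0146). *Trarg1*, a regulator of glucose transporter traffic in fat, had 189 counts in WT LV and 35 in TKO LV, and *Nnat*, an imprinted gene of the endoplasmic reticulum, had 117 and 17. *Cebpa*, a transcription factor of fat cell differentiation, had 304 and 88, but it was highest in WT infarct with 1198. Below the filter, *Lgals12*, a galectin of lipid droplets, had 49 counts in WT LV and 1 in TKO LV, and *Adrb3*, the beta-adrenergic receptor of fat, had 63 and 8.

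Several abundant genes of the list differed by less than 2-fold in the LV pair, while *Scd1*, a desaturase, had a ratio of 0.271 (0.238 to 0.308). *Lpl*, the lipase of capillary walls, had 106213 counts in WT LV and 86848 in TKO LV, a ratio of 0.865 (0.858 to 0.873). *Pnpla2* and *Lipe*, the lipases that mobilise stored fat, had 12737 and 1264 counts in WT LV against 8231 and 748 in TKO LV. *Fabp4*, a fatty acid carrier of fat and capillary cells, gave 0.726 (0.710 to 0.743) and *Dgat2*, an enzyme of triglyceride synthesis, 0.837 (0.816 to 0.859). Among the 6 genes that were higher in TKO LV, against 24 lower, *Aqp7* had 17.9 CPM there and 13.2 CPM in WT LV. In the same order *Agpat2* had 50.7 and 47.4 CPM, *Sncg* 8.34 and 8.21, and *Fasn* 6.37 and 6.21. *Sfrp5*, a secreted Wnt inhibitor, had 36 and 33 counts in the LV, reached 83 in WT remote and 74 in TKO remote, and was lowest in WT infarct with 4. *Rbp4*, the retinol carrier, was highest in WT infarct with 165 counts and had 11 and 4 in the LV. Across regions, edgeR called 0 of the 30 for genotype, 21 of 30 for the infarct zone against the LV (6 higher and 15 lower, where 56.9% of all genes were called), 0 of 30 for the border zone, and 0 of 30 for the remote zone. In the test of the LV against the zones it called 1 of 30, *Pck1*, at -6.38 ± 0.55 (adjusted p = 0.0313).

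Of 16 genes known from brown fat, 12 had a row. *Otop1*, a proton channel of brown fat, had 13 counts in WT LV and 0 in the other 7 libraries, and *Slc27a2*, a fatty acid transporter also known from liver, had 40 in WT LV and 0 to 3 elsewhere. They were thus present over the floor in the same single library as *Ucp1*. *Cox7a1* and *Cpt1b*, which heart muscle makes in quantity, had 5408 to 21195 and 5601 to 17251 counts and were lowest in WT infarct. *Dio2*, the deiodinase that activates thyroid hormone, had 940 counts in WT infarct, 553 in TKO infarct, and 47 and 20 in WT LV and TKO LV. The list as a whole did not follow *Ucp1*: 3 of the 9 genes that passed the filter were lower in TKO LV, with a median log2 ratio of 0.05.

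The genes most like *Adipoq* across the 8 libraries were then listed by Pearson's r of log2(CPM + 0.5), as a description without a test. Over 12998 other genes the 6 highest were *Pck1* (r = 0.98), *Cfd* (0.97), *Cidec* (0.96), *Trarg1* (0.96), *Car3* (0.96), and *Nnat* (0.94), which are all genes of the fat lists. Those lists were chosen with earlier results of these data known, so their place here is no independent evidence. The next were *Rfx1* (0.93), *Umps* (0.92), *Fas* (0.92), *Ube2k* (0.92), *Slc15a4* (0.91), *Crebrf* (0.90), and *Cyp2e1* (0.90), and the median over all genes was 0.00. *Rfx1*, *Umps*, *Ube2k*, *Slc15a4*, and *Crebrf* spanned only 1.21-fold to 1.64-fold between their highest and lowest libraries, where *Pck1* spanned 160-fold and *Cyp2e1*, a cytochrome P450 of liver and fat, 35.8-fold. WT LV and TKO LV, the libraries farthest from the median of *Adipoq*, were then left out. Among the genes of the fat lists r was 0.96 for *Pck1*, 0.92 for *Cfd*, 0.89 for *Car3* and *Trarg1*, 0.79 for *Cidec*, and 0.68 for *Nnat*. Among the others it was 0.87 for *Umps*, 0.80 for *Rfx1*, 0.79 for *Ube2k*, 0.66 for *Crebrf*, 0.39 for *Fas*, 0.33 for *Slc15a4*, and 0.09 for *Cyp2e1*. The points share libraries and their scaling, and the 2 LV libraries set both ends of the *Adipoq* range.

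Markers of other tissues that can be cut along with the heart peaked in other libraries than the fat genes. The summed skeletal muscle level peaked in the WT infarct library through fast-fibre genes. *Myh4*, a myosin heavy chain of fast fibres, had 1486 counts there, 193 in WT border, and 1 to 6 in the other 6 libraries, and *Myh1* and *Mylpf* had 1263 and 743 in WT infarct. Other genes of the list did not follow: *Tnnt1*, the troponin T of slow fibres, was lowest in WT infarct (4.77 CPM) and highest in TKO LV (14.9 CPM), *Myl1* was highest in WT remote, and *Mybpc2* in WT border. In WT infarct the 14 skeletal muscle genes measured summed to 286 CPM, against 38.0 to 106 CPM in the others. *Car3*, which slow muscle also makes, was 53.8% of the fat gene counts there, the largest share among the 8 libraries. The share was close to it in TKO remote (53.4%, with a skeletal muscle sum of 58.5 CPM) and in TKO infarct (51.2%, with 38.0 CPM). The part of skeletal muscle in the *Car3* level was not tested. Lung genes were high in both infarct libraries, with *Sftpc*, a surfactant protein, at 4871 counts in WT and 10576 in TKO infarct. *Sftpa1* and *Scgb1a1* had 2336 and 1220 counts in TKO infarct. The 5 genes summed to 168 CPM in WT infarct, 427 in TKO infarct, 37.3 in WT remote, and 2.29 in TKO remote. Their sum was 7.53 CPM in WT border, 6.68 in TKO border, and 1.82 to 1.86 in the LV libraries.

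Atrial muscle genes, summed without *Nppa*, were highest in the remote zones. *Myl7*, the atrial regulatory light chain, had 5227 counts in WT remote, 2031 in TKO remote, and 44 to 682 elsewhere, and *Bmp10* and *Sln* had 2134 and 2461 in WT remote. *Nppa*, which ventricular muscle also makes under load, was left out of their sum, which was 602 CPM in WT remote, 213 in TKO remote, and 15.8 and 19.5 in WT LV and TKO LV. With *Nppa* included the infarct zones were highest, at 3041 CPM in WT infarct against 2565 in WT remote. In TKO that sum was 2092 CPM in the infarct zone and 702 in the remote zone. Mesothelial genes, which mark the outer lining of the heart, summed over 7 genes to 82.9 CPM in WT infarct, 54.7 in TKO infarct, 12.5 in WT LV, and 5.68 in TKO LV. *Upk3b*, 1 of them, had 121 counts in WT LV and 5 in TKO LV, and 1365 in WT infarct. *Upk1b* had 13 and 0 counts and *Lrrn4* 19 and 4 in WT LV and TKO LV, while *Krt19* (25 and 39) and *Msln* (0 and 14) were higher in TKO LV.

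Lymphocyte genes summed over 8 genes to 30.4 CPM in WT infarct, 14.8 in TKO infarct, 11.7 in WT LV, and 3.21 in TKO LV. *Ms4a1* and *Cd79b*, which mark B cells, had 57 and 68 counts in WT LV against 7 and 9 in TKO LV, and *Cd3g*, a T cell receptor subunit, had 26 against 4. The summed mesothelial and lymphocyte levels were thus also lower in TKO LV, though not for every gene, while both sums peaked in WT infarct and the fat genes in WT LV. Their part in the fat gene values was not tested. Cardiomyocyte genes summed to 29993 CPM in WT LV and 28130 CPM in TKO LV, a difference of less than 1.5-fold.

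**Figure D5:**
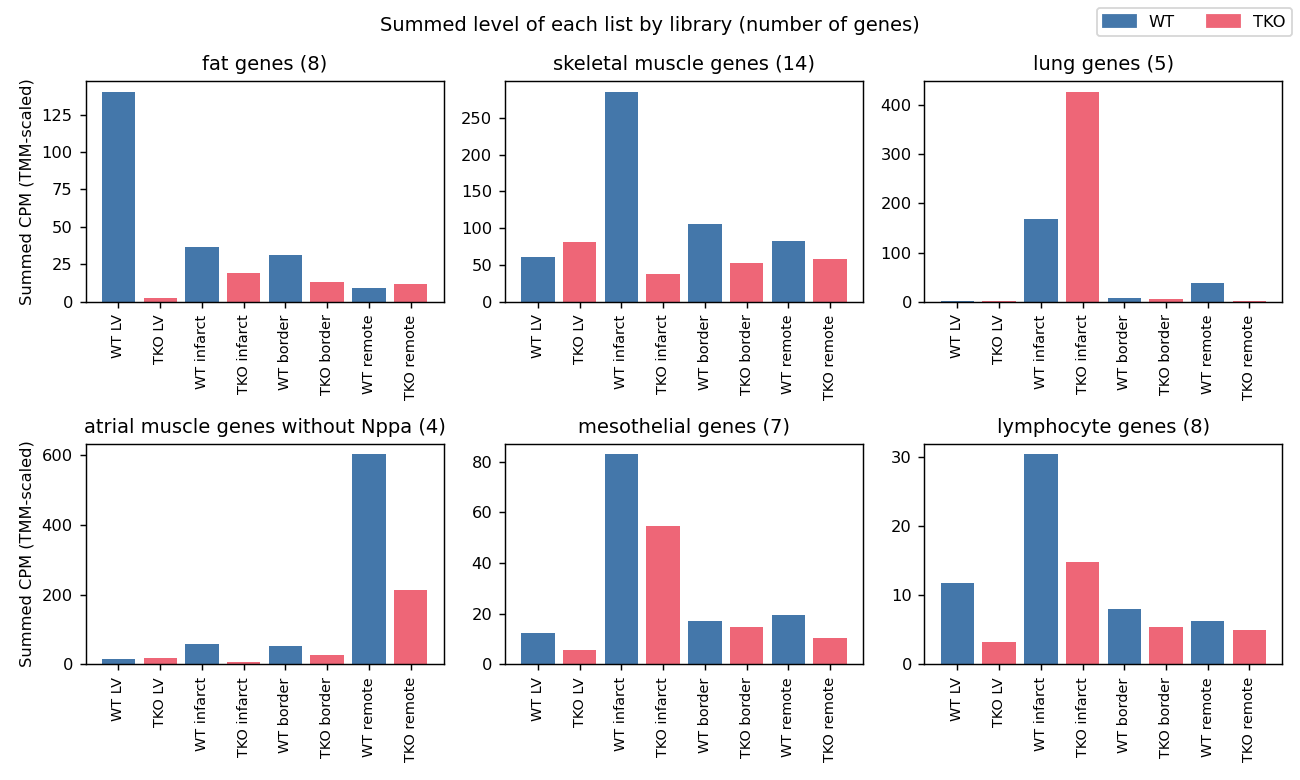
Summed TMM-scaled CPM (vertical axes from 0) of the 8 fat genes and of 5 lists for other tissues, with WT bars in blue and TKO bars in red and the number of genes in each title. The fat genes peak in WT LV at 140 CPM, skeletal muscle genes in WT infarct at 286, lung genes in TKO infarct, and atrial genes without *Nppa* in WT remote at 602.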

How the data were processed

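Left ventricular RNA of WT and TKO hearts was sequenced as 8 libraries. The authors trimmed reads with Trim Galore 0.6.5 and quantified transcripts with kallisto 0.46 on mm10 (GRCm38), and the deposited table holds estimated counts per gene, summed with tximport, as whole numbers without normalization. Further analysis used R 4.3.3, edgeR 4.0.16, and DESeq2 1.42.0. CPM were scaled by TMM factors, computed on the 12999 genes whose mean CPM reached 1. edgeR's quasi-likelihood test was fitted with region and genotype as terms over all 8 libraries, and p-values were adjusted over the 12999 genes. It was tested on simulated data before use. No library has a replicate, so the error behind the p-values is the departure of single libraries from an additive fit of region and genotype. The spread between mice cannot be told apart within it. Ratios of 2 libraries carry exact Clopper-Pearson 95% intervals, and 3 counts were the floor. All 8 members were named, with the widest-ranging genes of each other list (up to 6 adipocyte genes, 3 from the others), those at the floor throughout, and the 10 non-members most like *Adipoq*. Other genes (*Lpl*, *Fabp4*, *Lgals12*, *Adrb3*, *Otop1*, *Slc27a2*, *Pnpla2*, *Lipe*, *Scd1*, *Aqp7*, *Agpat2*, *Sncg*, *Fasn*, *Krt19*, *Msln*, *Tnnt1*, *Myl1*, *Mybpc2*, *Itpr1*, *Sap130*, *Igkv1-117*) were named after their values were seen. The members and lists were chosen with earlier results of these data known. Alternatives changed the scaling, the filter, the tool, and the libraries included.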

Additional observations from a re-analysis of the deposited data

Results flagged for a closer look

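The TKO over WT difference of the LV departed from that of the infarct, border, and remote zones for 2 of the 4 fat genes tested when tested with edgeR's quasi-likelihood method and adjusted by Benjamini-Hochberg over 12999 genes, of which 0.646% passed. The log2 fold change in the LV minus that in the 3 zones was -5.00 for *Adipoq* (adjusted p = 0.0359) and -5.74 for *Cidec* (adjusted p = 0.0401). The test was added after the values were seen and was prompted by them, so it is no independent evidence. Without WT border 0 of the 4 passed, where 0.0997% of all genes did. Without TKO border 0 of the 4 passed, where 0% of all genes did. It rests on 1 library of each genotype in the LV, and WT LV was the higher in both genes, with 370 against 6 counts and 388 against 6 counts.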

How the results depend on the processing

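By edgeR with libraries scaled by total counts alone, 56 genes were called for genotype across regions (18 with TMM), 200 for the border zone (93), 18 for the remote zone (0), and 275 for the LV against the zones (84), where 4 fat genes passed in place of 2. This scaling shifted the median of all genes by 0.69 log2 in the infarct zone against the LV, by -0.10 for genotype, and by 0.14 for the LV against the zones. It turned *Car3* in the infarct zone against the LV to 0.21 (adjusted p = 0.858), and gave summed ratios of 0.425 for TKO over WT in the infarct zone, 0.4604 and 11.5 for infarct over LV in WT and TKO, and 0.243 for border over LV in WT. Without *Car3*, infarct over LV in WT was 0.214. DESeq2's Wald test called 342 genes for genotype, 576 for the border zone, and 162 for the remote zone, with 0 fat genes in each. Without a filter on low counts, edgeR called 1 fat gene in the infarct zone (*Plin1*, adjusted p = 0.0496), which has counts in 1 library only, and 1 gene in the remote zone. Without both LV libraries, 79 genes were called for genotype.

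Leaving out each library in turn, the calls ranged from 3 to 69 for genotype, 4715 to 7251 for the infarct zone, 1 to 387 for the border zone, 0 to 65 for the remote zone, and 0 to 1466 for the LV against the zones. The fat genes called ranged from 0 to 0, 0 to 4, 0 to 2, 0 to 1, and 0 to 4 in the same order. Every zone against LV change of a fat gene turned positive without WT LV and was most negative without TKO LV: in the infarct zone from -2.34 to 2.67 for *Adipoq*, -2.24 to 2.99 for *Cfd*, -1.81 to 3.20 for *Car3*, and -2.32 to 3.42 for *Cidec*. In the border zone these ranges were -2.50 to 2.50, -2.22 to 3.001, -2.35 to 2.65, and -2.82 to 2.92, and in the remote zone -3.81 to 1.20, -3.64 to 1.62, -3.12 to 1.91, and -3.23 to 2.51. Without WT infarct, *Car3* in the infarct zone was 0.02. For genotype across regions, *Adipoq*, *Cfd*, *Car3*, and *Cidec* kept a negative sign in every fit run. *Plin1*, *Lep*, and *Ucp1* are limited by their low counts in the libraries at 0 to 3 counts. A library at 0 counts allows a bound only, and pairs with both libraries at 3 counts or fewer were given no ratio. The same gene values under DESeq2 size factors and without mitochondrial DNA-encoded genes kept their direction and their side of the threshold.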
